A study of Mus musculus with 6 samples.

Results

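The histone deacetylase family comprised 10 genes, Hdac1 to Hdac10, among the 23366 gene symbols counted in 6 RNA sequencing libraries. The members were chosen by gene symbol, with the liver and spleen values of these libraries and their differences already known, so their liver to spleen differences are given as a description and support no test. All 10 had reads in every library and passed the filter on low counts. The libraries came from CD4+GFP+ regulatory T (Treg) cells that had been sorted by flow cytometry, 3 from liver and 3 from spleen. Both groups were Foxp3GFP knock-in mice aged 12 days, in which green fluorescent protein reports Foxp3, the master transcription factor of these cells. No group without the knock-in allele was part of the comparison, and the labels give no treatment beyond the sort. Whether a library held cells of 1 animal or of several is not given in the sources used here, so the spread between libraries may be technical in part. Libraries are numbered within a tissue in accession order, and the labels do not say whether liver and spleen libraries were collected in pairs, so no pairing was used.

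Histone deacetylases remove acetyl groups from lysines of histone tails and of other proteins, which on histones is associated with compact, less transcribed chromatin. Class I enzymes work mainly in the nucleus within corepressor complexes. Class IIa enzymes have weak catalytic activity of their own, bind MEF2 transcription factors, and leave the nucleus bound to 14-3-3 proteins once kinases phosphorylate them. Class IIb enzymes act largely on proteins and small molecules of the cytoplasm. In Treg cells, deacetylases and acetyltransferases also act on the Foxp3 protein itself, whose acetylation stabilises it, and mice without Hdac9 have been described to have Treg cells with stronger suppressive function.

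The liver libraries held between 8437055 and 10951720 counts in genes, spleen 2 and spleen 3 held 11408960 and 11358446, and spleen 1 held 1199410. Log2 levels of spleen 1 correlated with those of the other spleen libraries at 0.942 and 0.943 across genes, which are not independent replicates, against 0.985 between spleen 2 and spleen 3. Levels are in CPM, that is, counts scaled by library size with TMM factors applied. Foxp3 averaged 1266 ± 58.4 CPM in the liver libraries against 1160 ± 57.6 CPM in those of spleen (SD, n = 3 each). The 9 Treg and T cell markers found in the table, led by Foxp3 and Ikzf2, summed to between 5192 and 5373 CPM in liver and between 4770 and 5381 CPM in spleen, with 2 higher and 2 lower in liver. Markers of other cells differed between the tissues. The summed level of 11 erythroid markers ranged from 5.78 to 10.7 CPM in liver and from 149 to 236 CPM in spleen, led by Beta-s and Slc4a1. All 7 of 7 tested were lower in liver. Beta-s, matched here to the globin gene Hbb-bs, averaged 5.97 ± 1.39 CPM in liver and 89.6 ± 35.1 CPM in spleen. The globin symbols Hba-a1, Hba-a2, Hbb-b1 and Hbb-b2 were at 0 in all libraries, so globin transcripts were present although these symbols had no counts. The cause of these zeros was not tested. The sums for granulocytes were 266 to 297 CPM in liver and 474 to 803 CPM in spleen, led by Ngp and Ltf, with 8 of 11 lower in liver. For macrophages and dendritic cells they were 78.7 to 92.2 and 135 to 212 CPM, led by Lyz2 and Cd68, with 7 of 11 lower, and for B cells 139.7 to 169 and 233 to 331 CPM, led by Cd79a and Cd79b, with 5 of 10 lower. NK and CD8 T cell markers summed to between 100 and 129 CPM in liver and between 45.9 and 54.4 CPM in spleen, led by Nkg7 and Prf1, with 5 of 8 tested higher and 1 lower in liver and Klra8 at 0 throughout. The sums for hepatocyte, endothelial and stromal markers were 202 to 241 and 245 to 268 CPM, led by Pecam1 and Stab2, with 2 of 7 tested higher and 1 lower in liver. Pecam1 alone averaged 209 ± 21.9 CPM in liver and 239 ± 16.9 CPM in spleen, most of each sum, so the sums say little of the other markers. Stab2 averaged 0.403 ± 0.38 and 10.8 ± 5.1 CPM. Alb, the albumin gene, was at 5.18 ± 2.66 CPM in liver and at 0 in spleen, and Dcn was at 0 in all libraries. Genes of cycling cells, led by Mki67 and Top2a, were higher in liver in 12 of 12 cases, with sums of 2183 to 2325 CPM in liver and 851 to 1036 CPM in spleen. The part of these cells, and of depth, in the differences between tissues described below was not tested.

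Every member had a lower mean in liver than in spleen. The log2 fold changes, liver minus spleen, ran from -0.995 for Hdac9 to -0.06 for Hdac8, with a median of -0.32, while the median over all 11716 genes tested was -0.005 and 50.7% of them were below 0. The edgeR quasi-likelihood fit across all genes placed 2 of the 10 members, Hdac7 and Hdac9, under an adjusted p of 0.05 in the direction of lower in liver, and 0 higher. The same threshold was passed toward lower in liver by 6.9% of all genes and toward higher by 9.28%. At an unadjusted p under 0.05 the family counts were 7 lower and 0 higher, and the share of all genes at that p is not given here. The counts of adjusted calls were 2 lower and 0 higher with DESeq2 and 5 lower and 0 higher with limma-voom. Of all 11716 genes, DESeq2 called 822 lower and 1020 higher, and limma-voom called 1243 lower and 1521 higher. All liver libraries lay below all spleen libraries for 6 members, a pattern that held for 15.2% of all genes; nothing is read from these counts, since the family was proposed with them known. The number of members past the threshold depended on single libraries. It was 4 without spleen 1, when Hdac5 and Hdac10 joined, 3 without liver 3, when Hdac1 and Hdac10 joined and Hdac9 was lost, and 1 without liver 2, spleen 2 or spleen 3, when Hdac7 alone was left. In bulk libraries, less transcript per cell and fewer cells that express a gene cannot be told apart.

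**Figure D1:**
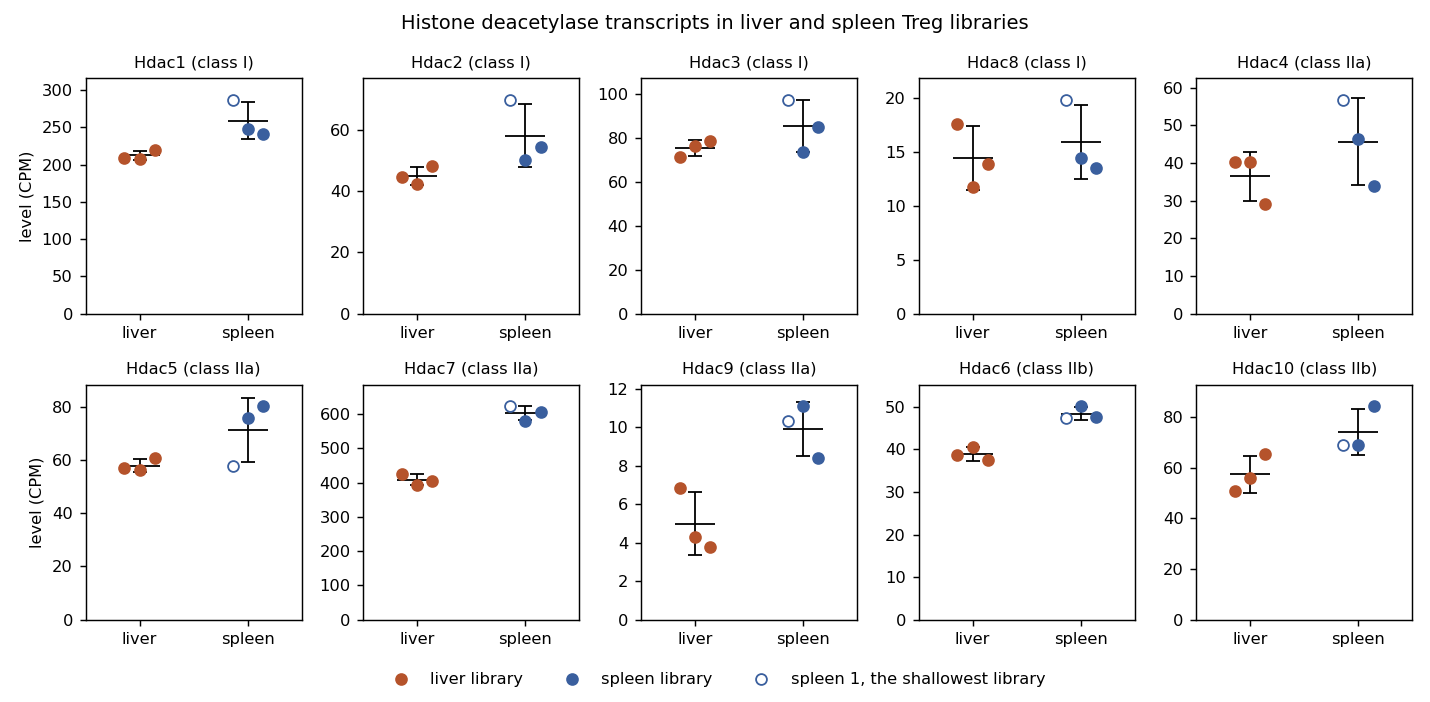
Level in CPM (vertical axes, from 0, a different scale for each gene) of the 10 members in liver and spleen libraries; each point is a library, bars are mean ± SD over 3 libraries, and the open point is spleen 1. Liver and spleen points are separate for Hdac1, Hdac2, Hdac6, Hdac7, Hdac9 and Hdac10 and overlap for Hdac3, Hdac4, Hdac5 and Hdac8.

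Per length, 2 genes made up most of the family's signal. With counts divided by the length of the union of a gene's exons, liver levels were 104 ± 3.29 CPM per kb for Hdac1 and 82.2 ± 3.27 CPM per kb for Hdac7 (SD, n = 3). Spleen levels were 127 ± 12.0 and 121 ± 4.34 CPM per kb. Hdac3 followed at 37.1 ± 1.83 CPM per kb in liver and 42.0 ± 5.82 in spleen, and Hdac10 at 22.9 ± 2.90 and 29.6 ± 3.56. A middle group of Hdac2, Hdac5, Hdac6 and Hdac8 lay between 7.44 and 10.6 CPM per kb in liver and between 8.21 and 13.7 in spleen, in that order in both tissues. Hdac4 was at 4.50 ± 0.8 CPM per kb in liver and 5.64 ± 1.41 in spleen. Hdac9 was lowest, at 0.467 ± 0.153 CPM per kb in liver and 0.931 ± 0.133 in spleen. The order of the 10 means was the same in both tissues. Neighbours whose libraries overlapped were Hdac2 with Hdac5 and Hdac6 with Hdac8 in liver, and Hdac1 with Hdac7, Hdac2 with Hdac5, Hdac5 with Hdac6 and Hdac8 with Hdac4 in spleen. Dividing by the longest transcript instead, a choice made after the data were seen, put Hdac7 above Hdac1 in spleen, at 143 against 127 CPM per kb, and left the other ranks as they were. The level of Hdac1 is uncertain to the extent that reads also match its pseudogene Hdac1-ps, since the way such reads were counted is not given in the sources used here.

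**Figure D2:**
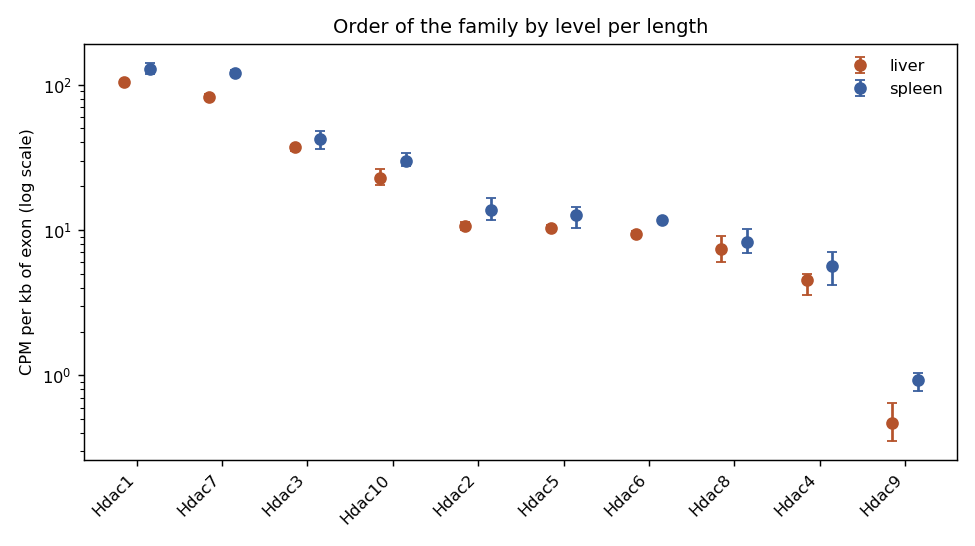
Mean level per kb of exon (vertical axis, log scale) of the 10 members in liver and spleen; error bars span the lowest to the highest of 3 libraries. Hdac1 and Hdac7 stand near 100 CPM per kb and Hdac9 near 1 or below in both tissues, with spleen above liver for each gene.

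Class IIa, the MEF2-binding enzymes, held the 2 members past the threshold. Stretches around the annotated starts of class IIa genes are shown because both members past the threshold belong to this class, each running from 250 bases before to 50 after a start in the RefSeq table of GRCm38.p6. The counted reads were aligned to an earlier build, so these positions describe the sequences only. Promoters were at hand for 7 of the 10 members, 11 starts in all. Capitals mark matches on either strand to any of 8 motifs. These were the GC box GGGCGG, the NF-Y letters CCAAT, the ETS letters CCGGAAG, the E-box CACGTG, the MEF2 letters CTANNNNTAG, the TATA letters TATAAA, the Runx letters TGTGGT and the forkhead letters TGTTTAC, and no matches overlap in the stretches shown.
Hdac4, chr1:92180292-92180591, minus strand: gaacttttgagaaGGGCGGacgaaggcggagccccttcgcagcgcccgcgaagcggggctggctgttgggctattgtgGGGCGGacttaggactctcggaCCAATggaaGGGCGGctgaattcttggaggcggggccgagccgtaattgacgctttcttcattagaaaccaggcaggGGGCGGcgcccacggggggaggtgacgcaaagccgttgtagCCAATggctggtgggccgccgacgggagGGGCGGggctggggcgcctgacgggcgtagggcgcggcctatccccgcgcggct
Hdac5, chr11:102230123-102230422, minus strand: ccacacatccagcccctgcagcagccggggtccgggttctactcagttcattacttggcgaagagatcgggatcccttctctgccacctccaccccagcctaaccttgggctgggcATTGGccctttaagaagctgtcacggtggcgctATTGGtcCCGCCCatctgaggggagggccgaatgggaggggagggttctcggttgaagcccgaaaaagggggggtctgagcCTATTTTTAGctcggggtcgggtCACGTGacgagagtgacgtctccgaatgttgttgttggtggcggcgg
Hdac7, first listed start, chr15:97831446-97831745, minus strand: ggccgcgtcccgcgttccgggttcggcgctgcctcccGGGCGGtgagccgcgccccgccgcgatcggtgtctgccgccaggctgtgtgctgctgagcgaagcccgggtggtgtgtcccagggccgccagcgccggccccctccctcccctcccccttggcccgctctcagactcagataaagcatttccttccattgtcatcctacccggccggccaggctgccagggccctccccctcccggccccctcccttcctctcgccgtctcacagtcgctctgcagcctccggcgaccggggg
Hdac9, first listed start, chr12:34917046-34917345, minus strand: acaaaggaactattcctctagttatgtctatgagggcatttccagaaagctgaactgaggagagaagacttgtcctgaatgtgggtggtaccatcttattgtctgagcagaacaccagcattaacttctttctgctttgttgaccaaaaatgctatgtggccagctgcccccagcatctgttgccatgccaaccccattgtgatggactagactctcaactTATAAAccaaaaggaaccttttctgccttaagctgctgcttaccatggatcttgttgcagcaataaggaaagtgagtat
Hdac9, second listed start, chr12:34528840-34529139, minus strand: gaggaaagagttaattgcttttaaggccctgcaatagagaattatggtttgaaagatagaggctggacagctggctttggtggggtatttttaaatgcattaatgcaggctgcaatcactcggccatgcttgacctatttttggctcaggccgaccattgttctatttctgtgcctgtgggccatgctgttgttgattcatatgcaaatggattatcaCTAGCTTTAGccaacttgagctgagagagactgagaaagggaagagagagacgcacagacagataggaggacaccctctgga
The table lists 4 starts for Hdac7, of which the first is shown. The Hdac4 stretch and the first Hdac7 stretch were rich in G and C, at 68.0% and 73.7%, with 32 and 31 CG pairs. The other Hdac7 starts, from the second to the last, were at 54.7%, 65.7% and 60.7%, with 6, 35 and 5 CG pairs. Both Hdac9 stretches were poorer, at 44.0% and 45.3%, with 0 and 3 CG pairs; over all 32851 promoters of the table the medians were 52.7% and 7. A GC box was found 5 times in Hdac4 and once each in Hdac5 and the first Hdac7 stretch, and 35.7% of all promoters held one. Among the stretches not printed, Hdac6 held 5 and Hdac2 held 1, and the other Hdac7 starts held 0. The MEF2 letters were found in Hdac5, in the second Hdac9 stretch and, among the stretches not printed, in Hdac2, and 3.69% of all promoters held them. This pattern is loose, since it leaves its middle letters free. They were TTTT in Hdac5, GCTT in Hdac9 and CCCG in Hdac2, so only the Hdac5 match had A or T throughout the middle. TATA letters were found in the first Hdac9 stretch and in Hdac8 (13.6% of all promoters), and an E-box in Hdac5 (7.15%). A match is a description of letters and says nothing of binding in these cells, and a window without a match says only that the letters are not in it. The NF-Y letters were found in Hdac4, Hdac5, Hdac6 and Hdac8 (37.4% of all promoters), and the Runx letters in Hdac2, Hdac6 and Hdac8 (16.8%). Forkhead letters were found in the third Hdac7 stretch (3.65%), and ETS letters in none of the 11 stretches (8.86%).

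Hdac7, the class IIa enzyme known in developing T cells for repressing MEF2 targets until T cell receptor signals export it from the nucleus, had the highest counts of the family. Its levels were 425, 393 and 405 CPM in liver 1 to 3 and 623, 580.2 and 605 CPM in spleen 1 to 3. The lowest spleen library stood above the highest liver library by more than the range within either tissue. The mean was 408 ± 16.2 CPM for liver against 603 ± 21.5 CPM for spleen (SD, n = 3 each), a ratio of 0.676. The log2 fold change was -0.56 ± 0.09 (SE). In all 14 alternatives the adjusted p stayed under 0.05, and the fold change ranged from -0.62 to -0.53. The alternatives reuse the same libraries for a member chosen with their values known, so they add no independent support. Of all reads counted for the family, Hdac7 took 44.2% (95% Wilson interval 43.1% to 45.3%), 42.3% (41.4% to 43.3%) and 42.1% (41.2% to 43.1%) in liver 1 to 3. In spleen 1 to 3 it took 46.6% (44.1% to 49.1%), 47.6% (46.8% to 48.4%) and 48.2% (47.4% to 49.1%); these intervals cover counting error only. The share was larger in each spleen library than in each liver library, although the interval of spleen 1 reached into that of liver 1. The number of Hdac7 reads per Hdac1 read, a value that no scaling of the libraries touches, was 2.03, 1.89 and 1.84 in liver 1 to 3. In spleen 1 to 3 it was 2.17, 2.34 and 2.51, again without overlap. The 724 Hdac7 and 333 Hdac1 reads of spleen 1 carry counting errors of 3.72% and 5.48%, so its distance from liver 1 is uncertain. Exons of Slc48a1, a neighbour, overlap 29 bases or 0.585% of the Hdac7 exons; Slc48a1 itself averaged 62.9 ± 5.31 CPM in the liver libraries against 63.4 ± 1.54 CPM in those of spleen.

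Hdac9, a class IIa enzyme that also occurs as a truncated form without the catalytic domain, had the lowest counts and the largest fold change. Its 57, 47 and 41 reads in liver 1 to 3 were 6.85, 4.31 and 3.80 CPM. The 12, 130 and 98 reads in spleen 1 to 3 were 10.3, 11.1 and 8.38 CPM. The tissues did not overlap, but liver 1 lay closer to spleen 3 than to the other liver libraries. The means were 4.99 ± 1.64 and 9.95 ± 1.42 CPM (SD, n = 3 each), a ratio of 0.501 and a log2 fold change of -0.995 ± 0.318 (SE). The gene was no longer under an adjusted p of 0.05 without liver 2 (-0.90), liver 3 (-0.83), spleen 2 (-0.86) or spleen 3 (-1.14), and it fell below the filter on low counts when all libraries were thinned to the depth of spleen 1. The counts do not separate its isoforms. The summed levels of B cell and myeloid markers were lower in liver along with it, though not every single marker was, as given above. Their part in the Hdac9 difference was not tested.

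Hdac5, another MEF2-binding enzyme, was at 56.9, 56.0 and 60.5 CPM in liver 1 to 3. In spleen 1 to 3 it was at 57.7, 75.7 and 80.2 CPM. Spleen 1 lay within the liver range, and the other spleen libraries lay above it. The log2 fold change was -0.35 ± 0.13 (SE), not past the threshold, and -0.43 and past it without spleen 1. Hdac4, the remaining class IIa enzyme, was at 40.2, 40.3 and 29.0 CPM in liver 1 to 3 and at 56.8, 46.4 and 33.9 CPM in spleen 1 to 3. It spread more within a tissue than most members, with a coefficient of variation of 17.8% in liver and 25.1% in spleen, and the tissues overlapped (log2 fold change -0.253 ± 0.185, SE). The value was -0.10 without liver 3, -0.14 without spleen 1 and -0.46 without spleen 3. Counting error alone would give 5.26% at the mean liver count of Hdac4. Exons of Gm26720 and Mir8101 overlap 1.63% of the Hdac4 and 1.97% of the Hdac5 exons, respectively.

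**Figure D3:**
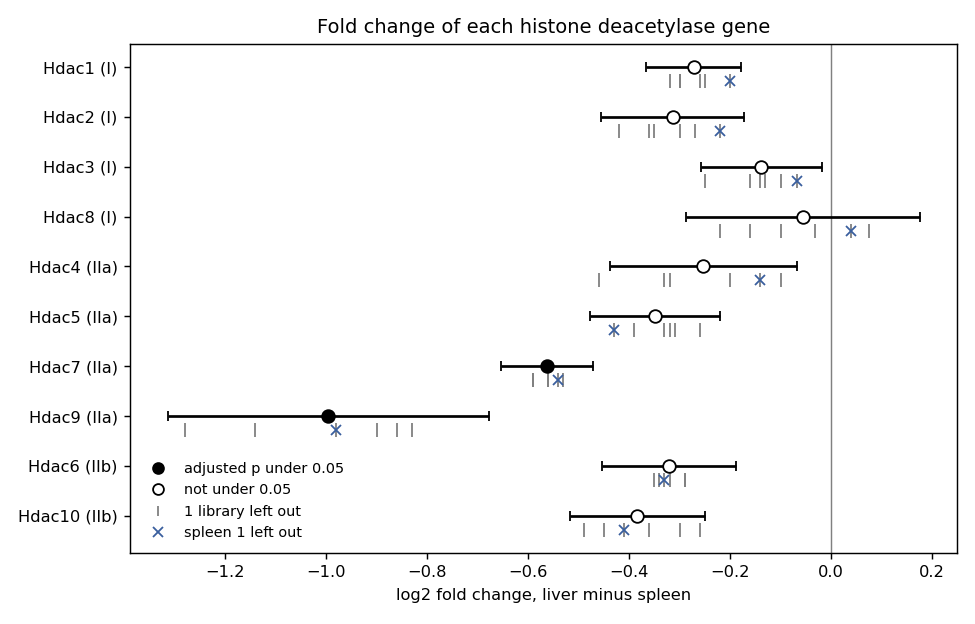
Log2 fold change, liver minus spleen (horizontal axis), of each member; circles with bars are the value ± SE from all 6 libraries, filled where the adjusted p across all genes was under 0.05, grey ticks are the values with 1 library left out, and the blue cross is the value without spleen 1. Hdac7 and Hdac9 carry filled circles, and 2 of the Hdac8 ticks lie above 0.

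Class I members were also lower in liver on average, by less, and none passed the threshold. Hdac1, a catalytic subunit of the NuRD, Sin3 and CoREST complexes, was at 209, 208 and 219.9 CPM in liver 1 to 3 and at 287, 248 and 241 CPM in spleen 1 to 3. The tissues did not overlap, spleen 1 was the highest library, and the log2 fold change was -0.27 ± 0.09 (SE), or -0.20 without spleen 1. Without liver 3 the value was -0.30 and past the threshold. Hdac2, its close paralogue in the same complexes, was at 44.4, 42.2 and 48.0 CPM in liver and at 69.7, 50.1 and 54.2 CPM in spleen. Its tissues were also separate, again with spleen 1 highest (log2 fold change -0.31 ± 0.14, SE, and -0.22 without spleen 1). The 81 reads of Hdac2 in spleen 1 carry a counting error of 11.1%.

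Hdac3, the catalytic subunit of the NCoR corepressor complex, was at 71.4, 76.3 and 78.7 CPM in liver 1 to 3 and at 97.3, 73.6 and 85.0 CPM in spleen 1 to 3. Spleen 2 lay within the liver range (log2 fold change -0.14 ± 0.12, SE, and -0.07 without spleen 1). Hdac8, which deacetylates the cohesin subunit Smc3, was at 17.6, 11.7 and 13.9 CPM in liver and at 19.8, 14.4 and 13.5 CPM in spleen. Its libraries overlapped widely, and the fold change of -0.06 ± 0.23 (SE) changed sign to 0.04 without spleen 1 and to 0.075 without liver 2. With the SE given, neither sign is favoured for Hdac8.

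Class IIb members differed by similar amounts and with separate libraries. Hdac6, the deacetylase of alpha-tubulin and Hsp90 in the cytoplasm, was at 38.8, 40.5 and 37.4 CPM in liver 1 to 3 and at 47.3, 50.2 and 47.7 CPM in spleen 1 to 3. Hdac6 was the member with the least spread between libraries in spleen, with a coefficient of variation of 3.24%. Its 55 reads in spleen 1 carry a counting error of 13.5%, more than that spread, so the small spread is not read as stability. The log2 fold change of Hdac6 was -0.32 ± 0.13 (SE). Hdac10, known as a polyamine deacetylase, was at 51.0, 55.9 and 65.3 CPM in liver and at 68.9, 69.0 and 84.4 CPM in spleen. The highest liver library was liver 3, and the highest spleen library was spleen 3. The log2 fold change of Hdac10 was -0.38 ± 0.13 (SE), and it passed the threshold without spleen 1 (-0.41) or without liver 3 (-0.49).

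By class, the median log2 fold change was -0.21 over the 4 class I, -0.46 over the 4 class IIa and -0.35 over the 2 class IIb genes. Class I enzymes took 35.6% to 37.5% of the family's reads in liver, 35.4% in spleen 1, and 31.7% and 31.4% in spleen 2 and spleen 3. Class IIa took 51.8% to 55.0% in liver and 55.9% to 58.5% in spleen. Without Hdac7 the rest of class IIa took 9.70% to 10.8% in liver and 9.33% to 10.9% in spleen, so the ranges of the tissues overlapped. Summed over the 10 members the level was 927 to 962 CPM in liver and 1219 to 1338 CPM in spleen. These sums and shares follow from the values above and were not tested.

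Likeness of pattern was measured as the root mean square difference of centred log2 levels over the 6 libraries, which share depth and tissue between genes, so it is a description. Hdac1 and Hdac2 were each other's nearest family member, at 0.091, and Hdac5 and Hdac10 were a second such pair, at 0.142. Hdac9 was the farthest member from each of the others, by 0.336 to 0.538. Among 8755 other genes with a mean of at least 10 CPM, the nearest to Hdac7 was Gucd1, at 0.0198, with levels of 51.0, 47.1 and 48.6 CPM in liver and 72.3, 69.2 and 73.2 CPM in spleen. The nearest to Hdac1 was Sh3glb2 (0.0235), to Hdac2 Carkd (0.0402), to Hdac3 Yme1l1 (0.0377), to Hdac4 Rlim (0.0654) and to Hdac5 Pofut1 (0.0344). For Hdac6 it was Tnpo2 (0.0278), for Hdac8 Mrps33 (0.079) and for Hdac10 Alg1 (0.023). Dusp6 came nearest to Hdac9, at 0.146, with 44.9, 31.8 and 30.6 CPM in liver and 62.0, 76.3 and 67.9 CPM in spleen.

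Genes that work with the deacetylases were taken from lists chosen, like the members, with earlier results of these data known. Their values come from the same fit over all genes, and their adjusted p are given as a description. Of 8 other deacetylases, Hdac11 and Sirt1 to Sirt7, 0 passed in either direction by edgeR, as by DESeq2 and limma-voom. An unadjusted p under 0.05 was reached by 0. Of all genes, 9.28% passed as higher and 6.9% as lower in liver by edgeR, so a count of 0 among 8 sets this list apart neither from all genes nor from the family. The median log2 fold change was -0.19, and 5 of the 8 values were negative. Hdac11, the class IV enzyme, had 13 to 19 reads in liver and 2 to 38 in spleen and lay between 1.56 and 3.25 CPM (log2 fold change -0.69 ± 0.48, SE, edgeR adjusted p = 0.383). Its 2 reads in spleen 1 were under the floor of 3 counts. Exons of Gm44002 and Gm14573 overlap 22.4% and 3.62% of the Hdac11 exons, and neither gene was among the counted symbols. The NAD-dependent enzymes with the smallest p were Sirt6 (-0.22 ± 0.13, edgeR adjusted p = 0.289), Sirt4 and Sirt5.

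Beside the counts of partner genes stand the shares of all genes that passed, 9.28% as higher and 6.9% as lower in liver. Among subunits of the class I complexes, fold changes had both signs. Of 13 NuRD subunits 1 was lower and 1 higher in liver, with a median of -0.05. The nucleosome remodeller Chd3 was at 1189, 1197 and 1131 CPM in the liver libraries and 1422, 1543 and 1602 CPM in the spleen libraries. It was lower in each liver library than in each spleen library (log2 fold change -0.38 ± 0.09, edgeR adjusted p = 0.00632), and Chd4 gave -0.23 ± 0.09 (edgeR adjusted p = 0.0884). Mta3 was higher, at 116 ± 4.56 against 93.2 ± 7.17 CPM (0.34 ± 0.10, edgeR adjusted p = 0.030), and lost its call when any library other than spleen 1 was left out; Chd3 lost its call without spleen 2. The methyl-CpG binding subunit Mbd2 gave 0.26 ± 0.09 (edgeR adjusted p = 0.0569).

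Of 16 Sin3 subunits tested 0 passed by edgeR or DESeq2, and 3 were higher by limma-voom, which called 1521 of all 11716 genes higher. An unadjusted p under 0.05 was reached by 5, all higher in liver, and the share of all genes at that p is not given here. The median was 0.17. Arid4a (0.25 ± 0.09, edgeR adjusted p = 0.081), Morf4l1, Arid4b and Suds3 had the smallest p, and Arid4b passed without liver 3. In the CoREST and MiDAC list 1 of 18 was lower in liver and 17 did not pass (median -0.19). This was the zinc finger gene Rreb1, at 52.6 ± 7.04 against 77.8 ± 10.7 CPM (-0.60 ± 0.13, edgeR adjusted p = 0.00414). Elmsan1 (-0.30 ± 0.13, edgeR adjusted p = 0.129) and Mier2 joined it without spleen 1, a count of 3.

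Partners of class IIa enzymes gave 4 higher and 1 lower in liver among 25 tested, with a median of 0.08. Mef2c, a MEF2 transcription factor gene, was the lower one, at 4.33, 4.40 and 5 CPM in liver and 5.16, 11.3 and 10.6 CPM in spleen. Spleen 1 was close to the liver libraries (log2 fold change -1.12 ± 0.31, edgeR adjusted p = 0.0175). B cells and myeloid cells also express Mef2c, and the summed levels of their markers were lower in liver, as given above. Single markers were lower in 5 of 10 cases for B cells, 8 of 11 for granulocytes and 7 of 11 for macrophages and dendritic cells. The part of these cells in the Mef2c difference was not tested. Sik1, a kinase that phosphorylates class IIa enzymes, was at 273, 169 and 178 CPM in liver and at 108, 129 and 144 CPM in spleen (0.66 ± 0.15, edgeR adjusted p = 0.0052). The 14-3-3 genes Ywhaq (0.36 ± 0.10, edgeR adjusted p = 0.0163), Ywhae (0.35 ± 0.10, edgeR adjusted p = 0.0222) and Ywhah (0.36 ± 0.11, edgeR adjusted p = 0.0294) were higher in liver. With all libraries, the 14-3-3 genes Ywhab (0.07), Ywhag (0.00), Ywhaz (0.19) and Sfn (0.16) did not pass by edgeR. Nor did the MEF2 genes Mef2a (-0.13), Mef2b (0.45) and Mef2d (-0.06), or the kinase genes Sik2 (0.19) and Sik3 (0.20). Sik1 passed with each library left out in turn, while Mef2c lost its call without liver 1, liver 2, spleen 2 or spleen 3. Of the 5 genes past the threshold Ywhaq, Ywhae and Ywhah lost calls too. The count over the list was 2 without liver 2, 1 without spleen 2 and 3 without spleen 3.

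Among 10 genes linked to Hdac6 and tubulin acetylation, 2 passed as higher in liver and 0 as lower (median 0.07). Bag3, a co-chaperone of selective autophagy, was at 21.0 ± 3.59 against 9.38 ± 2.42 CPM (1.12 ± 0.24, edgeR adjusted p = 0.003). The autophagy receptor gene Sqstm1 was at 352 ± 22 against 265 ± 34.3 CPM (0.43 ± 0.10, edgeR adjusted p = 0.00795) and lost its call without liver 1, spleen 2 or spleen 3. Vcp (0.20 ± 0.09) and Ubb (0.21 ± 0.11) passed without spleen 1, a count of 4.

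Counts for the opposing enzymes and for the readers of acetylated lysines also stand beside 9.28% of all genes higher and 6.9% lower in liver. Of 20 acetyltransferases 1 was lower in liver and 19 did not pass (median -0.03). Kat2a, which encodes Gcn5, was at 50.7, 54.7 and 56.4 CPM in liver and 82.6, 81.7 and 91.7 CPM in spleen. No libraries overlapped (-0.67 ± 0.12, edgeR adjusted p = 0.000535), and the call held with each library left out. Ncoa3 (-0.27 ± 0.09, edgeR adjusted p = 0.0641) passed without spleen 1, while Kat8 and Kat6a were next by p at adjusted values of 0.548 and 0.599 by edgeR. Of 22 bromodomain genes 2 were higher in liver and 20 did not pass (median -0.01). Atad2, an ATPase gene linked to cell cycle progression, was at 98.7 ± 8.42 against 63.9 ± 5.87 CPM (0.60 ± 0.12, edgeR adjusted p = 0.00133), and Cecr2 at 14.8 ± 3.35 against 6.20 ± 1.52 CPM (1.37 ± 0.28, edgeR adjusted p = 0.00207). Brd3 (-0.30 ± 0.13) and Smarca2 (-0.20 ± 0.09) did not pass. Markers of cycling cells were higher in liver along with Atad2, with the sums given above.

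**Figure D4:**
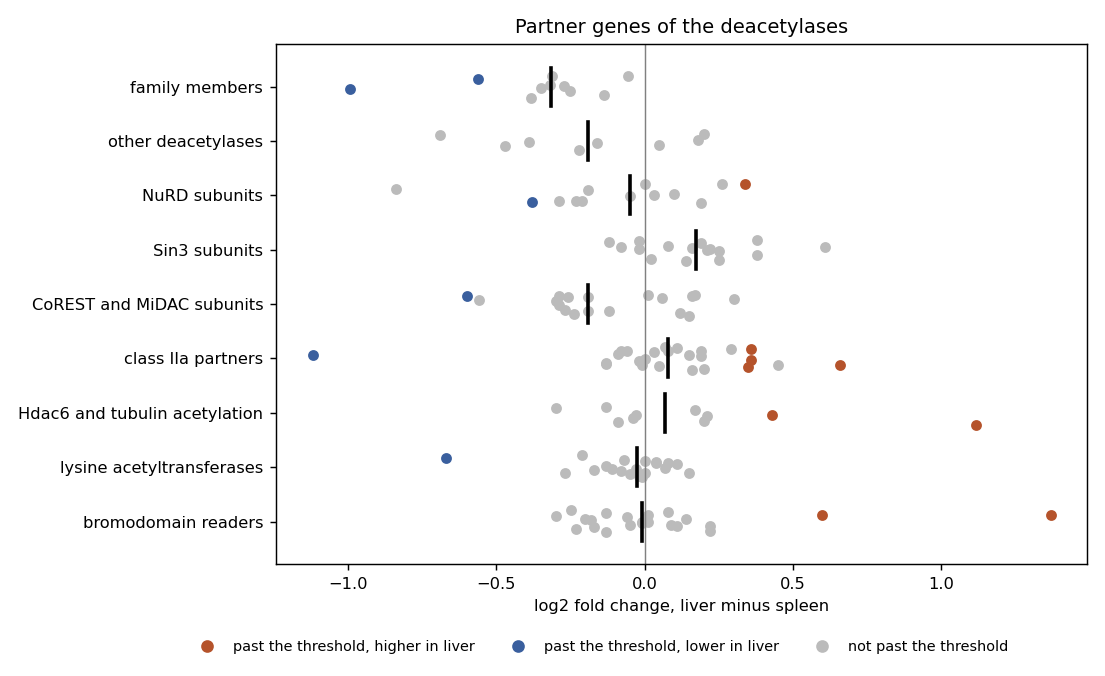
Log2 fold change, liver minus spleen (horizontal axis), of each tested gene in the family and in 8 lists of partner genes; orange and blue points passed the adjusted p threshold of 0.05 as higher or lower in liver, grey points did not, and black bars are list medians. The family median is -0.32, and the list medians lie between -0.19 and 0.17.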

How the data were processed

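RNA was measured by sequencing in 3 liver and 3 spleen Treg libraries. The authors deposited raw read counts per gene symbol; HISAT2 2.1, HTSeq 0.11 and build mm9 were used, per the submitters' processing notes. The sources used here give neither the annotation nor the strand setting, so overlapping and antisense genes are uncertain. Of all counts in the table, 25.5% to 29.0% stood in 5 HTSeq summary rows that name no gene and were left out.

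The tests used edgeR 4.0.16 in R 4.3.3, with filterByExpr (11716 genes left), TMM scaling and a quasi-likelihood fit of tissue to all 6 libraries, with Benjamini-Hochberg adjustment over all genes and a threshold of 0.05. The biological coefficient of variation was 0.129. The SE of a fold change is the one implied by the F statistic. A floor of 3 counts is 2.58 CPM in spleen 1 and 0.256 to 0.361 CPM in the others. Replicate pairs differed by more than sampling noise, with chi-square per degree of freedom of at least 4.71. Exon lengths came from the GENCODE M21 basic annotation of GRCm38, a later build, as did the overlaps between genes. The likeness measure used log2(CPM + 0.25).

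The members and the lists were chosen with earlier results of these data known. Named genes are the members, Hdac11, the 4 smallest p of each list, the 2 most abundant genes of each marker list, markers at 0 in all libraries, and the nearest genes by pattern; Alb, Mier2, Ywhah and genes that overlap or copy a member were named after their values were seen. The markers Trac, Hbb-bt, Ahsp and Ly6g matched no symbol of the table. Older symbols were matched through the RefSeq table. The list of Hdac3 complex subunits is not reported here. The edgeR steps were tested on simulated counts. Alternatives were DESeq2 1.42.0, limma-voom (limma 3.58.1), other scalings and filters, thinning, leaving out 66 marker genes, and leaving out each library.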

Additional observations from a re-analysis of the deposited data

How the results depend on the processing

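All 10 members kept a negative fold change with DESeq2 size factors, upper-quartile scaling, the DESeq2 Wald test, limma-voom, both other filters and the marker genes left out. Thinning to 1199410 counts gave 0.15 for Hdac8, whose value was also 0.04 without spleen 1 and 0.075 without liver 2, in a range from -0.22 to 0.075 with a library left out; the cause was not tested. The family count of 2 lower was 5 with upper-quartile scaling and with limma-voom and 1 after thinning; upper-quartile scaling also moved the median of all genes by -0.046 and gave 954 of all genes higher and 1014 lower in liver. The family count was 1 to 4 with a library left out. With limma-voom the counts past the threshold, in either direction, were 6 for NuRD, 3 for Sin3 and 2 for CoREST and MiDAC. They were 4 for the Hdac6 list and 2 for acetyltransferases. Of all genes, limma-voom called 1521 higher and 1243 lower in liver. After thinning they were 1 for NuRD, 0 for CoREST and MiDAC, 3 for class IIa partners and 1 for bromodomain genes, with 637 of all genes higher and 427 lower. Upper-quartile scaling gave 2 for acetyltransferases, as did DESeq2. With a library left out the counts were 0 to 2 (NuRD), 0 to 1 (Sin3), 1 to 3 (CoREST and MiDAC), 1 to 6 (class IIa partners), 1 to 4 (Hdac6 list), 1 to 2 (acetyltransferases), 722 to 1245 (all genes higher) and 486 to 989 (all genes lower), the lowest of these last counts being those without spleen 2. Among fold changes of single members, 50 of 60 values with a library left out and 71 of 79 others kept sign and side of the threshold. Depth limits Hdac8, Hdac9 and Hdac11 most, with 23, 12 and 2 reads in spleen 1.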
